A study of Mus musculus with 6 samples.

Results

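The gasdermins measured on these arrays were the 5 genes of the gasdermin C cluster that carry a probe and belong to the set examined (Gsdmc, Gsdmc2, Gsdmc3, Gsdmc4 and the pseudogene Gsdmcl-ps), together with Gsdmd and Gsdma. They are 7 of the 23462 named genes on the array and were represented by 9 probes, found by matching the RefSeq accession of each probe to a mouse gene symbol. The set was chosen by the measured difference itself, since Gsdmcl-ps stood among the largest rises in the knockouts, and so the differences between the genotypes at these probes are given as a description, without a test.

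The arrays held colon RNA of male mice, 3 controls and 3 with a knockout of Islr, which encodes a secreted protein with leucine-rich repeats. The source field of every sample gives 3.5% dextran sulfate sodium, which damages the lining of the colon, in drinking water over 5 days and then 1 day of recovery, in both genotypes; the treatment field of the same samples says that none was given. The series' design text speaks of flow separation of the colon samples before lysis, with no gate named. Strain, age, the allele and any Cre driver are not given in the sources used here. All controls lay in the same row of a slide and all knockouts in the other row, so slide row and genotype cannot be told apart.

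Gasdermins are pore-forming proteins. A protease cuts the linker that holds their amino- and carboxy-terminal parts together, and the freed amino-terminal part inserts into the plasma membrane, where the pore releases cytokines and can kill the cell by pyroptosis. Gsdmd is the executor downstream of inflammasomes and is cut by Casp1 and Casp4. The gasdermin C genes are expressed in the epithelium of the large intestine, can be cut by Casp8 and are known to be induced there by type 2 cytokines, while Gsdma is best known from skin and other squamous epithelia. The mouse gasdermin C genes lie side by side and are close paralogues, so a probe designed for a member may also capture transcripts of the others, and Gsdmcl-ps is annotated as a transcribed pseudogene.

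The sequence before the start of Gsdmc3 is shown because it is the promoter of a member of the cluster whose probes moved together, and the RefSeq table of promoters held 1 of the 7 genes. These are the 250 bases before the annotated start on the minus strand of mouse build GRCm38.p6 (chr15:63878559-63878808), 5′ to 3′, with a TATA-like stretch in capitals.
Gsdmc3: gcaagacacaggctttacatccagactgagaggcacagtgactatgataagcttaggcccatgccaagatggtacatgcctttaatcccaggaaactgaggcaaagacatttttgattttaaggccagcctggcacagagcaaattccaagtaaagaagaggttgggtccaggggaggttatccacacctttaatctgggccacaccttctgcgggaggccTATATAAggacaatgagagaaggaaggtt

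The stretch TATATAA was picked after the sequence had been seen and begins 29 bases before the start. It was searched on both strands, and 3.04% of the 32851 RefSeq windows of this length held it. The palindrome bound by STAT6 had no match in this window and was found in 5.85% of all windows. The letters TTTATNG of CDX2, CAAAGTCCA of HNF4 and TATAAA of the TATA box had no match either, and occurred in 9.81%, 0.384% and 12.4% of windows. A missing match says only that these letters do not occur in this window.

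Values below are log2 signals relative to the 75th percentile of the same array, so a value of 0 lies at that percentile; each probe has its own binding strength, and levels are compared between arrays and not between probes. Each of the 9 probes lay well above background on every array. The scanner software had marked 10 of their 54 spots as outliers, in 4 probes, and these spots are named where they occur. The Islr probe, examined as a check of the labels, read 1.57, 1.24 and 1.21 in control replicates 1, 2 and 3 and -1.40, -0.93 and -1.31 in the knockouts, with no overlap.

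In the gasdermin C cluster, the Gsdmc probe (A_51_P150489, NM_031378) read 1.53, -0.05 and 2.15 in the controls and 3.34, 2.68 and 2.86 in the knockouts, given here and below in the order of replicates 1, 2 and 3. All knockouts lay above all controls, and the knockouts were close together (2.96 ± 0.34, SD, n = 3) where the controls were spread widely (1.21 ± 1.14, SD, n = 3). The log2 difference, knockout minus control, was 1.75 (SE 0.55), which is a 3.36-fold higher signal in the knockouts. Leaving out control replicate 2, the lowest array, gave 1.12.

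Gsdmc4, whose probe (A_55_P2164932, NM_028992) carried no outlier mark, gave nearly the same picture. It read 1.78, -0.07 and 2.35 in the controls and 3.29, 2.80 and 3.07 in the knockouts. The groups did not overlap, and the difference was 1.70 (SE 0.59), a 3.25-fold higher signal. Without control replicate 2 it was 0.99.

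Gsdmc2 and Gsdmc3 had too few unmarked spots to enter the model, and their values rest on marked spots. For Gsdmc2 (A_66_P138990, NM_001168274) the arrays read -0.24, -1.72 and 0.70 in the controls and 2.67, 1.99 and 2.20 in the knockouts; control replicates 1 and 3 and knockout replicates 1 and 2 were marked. With those spots kept, the knockouts were 2.70 higher (SE 0.58), or 6.52-fold, and the lowest knockout lay 1.29 above the highest control. For Gsdmc3 (A_55_P2011101, NM_183194) the arrays read 0.52, -0.87 and 1.65 in the controls and 2.64, 1.99 and 2.41 in the knockouts, with marks on control replicate 1 and on every knockout. Its difference was 1.91 (SE 0.60), or 3.76-fold, again with no overlap. Without control replicate 2 the differences were 2.05 for Gsdmc2 and 1.26 for Gsdmc3.

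Gsdmcl-ps (A_51_P470475, NR_029414) showed the widest gap of the set. It read -3.91, -4.78 and -2.08 in the controls (-3.59 ± 1.38, SD, n = 3) and 0.35, -0.55 and 0.67 in the knockouts (0.16 ± 0.63, SD, n = 3). The lowest knockout lay 1.53 above the highest control, and the difference was 3.75 (SE 0.69), a 13.4-fold higher signal. None of its spots was marked. With any single array left out it lay between 3.15, without control replicate 2, and 4.51.

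The 5 probes ordered the controls identically: replicate 3 was the highest and replicate 2 the lowest control in 5 of 5, and knockout replicate 2 was the lowest knockout in 5 of 5. The probes are not independent of each other, since they share the arrays and may share transcripts. Over the 5 probes the median difference was 1.91, against 0.01 over all 40172 probes well above background in at least 1 group.

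**Figure D1:**
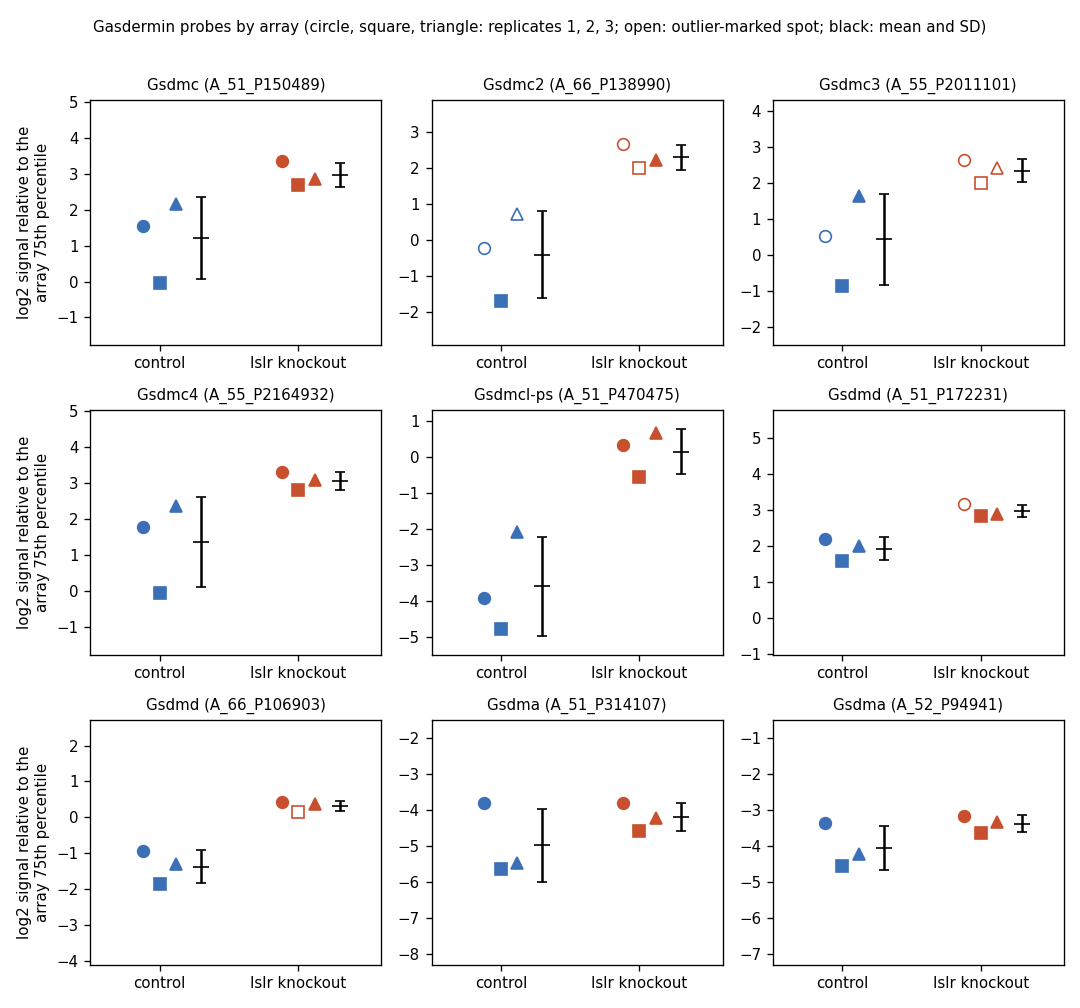
Log2 signal, centred on the 75th percentile of each array, at each of the 9 gasdermin probes (vertical axis, of equal span in every panel) for control and Islr knockout arrays; circles, squares and triangles are replicates 1, 2 and 3, open symbols are outlier-marked spots, and black bars are the mean and SD over 3 arrays. In the 5 panels of the gasdermin C cluster and both Gsdmd panels all knockouts lie above all controls, whereas the groups overlap in both Gsdma panels.

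Gsdmd, the inflammasome-driven gasdermin, was also higher in the knockouts, and with a much smaller spread among controls than the C cluster. Its probe A_51_P172231 (NM_026960) read 2.19, 1.58 and 1.99 in the controls and 3.16, 2.83 and 2.89 in the knockouts, with knockout replicate 1 marked. The model, which left that spot out, gave a difference of 0.94 (SE 0.23), a 1.92-fold higher signal. The other probe, A_66_P106903, read -0.94, -1.85 and -1.31 in the controls and 0.43, 0.16 and 0.38 in the knockouts, with knockout replicate 2 marked and left out of the model. Its difference was 1.77 (SE 0.30), or 3.42-fold. Both probes separated the groups in all 6 arrays, but they differ in the size of the difference.

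Gsdma was the member in which the groups overlapped. Its probe A_52_P94941 (NM_021347) read -3.38, -4.56 and -4.24 in the controls and -3.17, -3.64 and -3.34 in the knockouts, and A_51_P314107 read -3.80, -5.64 and -5.46 against -3.80, -4.57 and -4.22. In both, control replicate 1 lay among the knockouts while control replicates 2 and 3 lay below them. The differences were 0.67 (SE 0.32) and 0.77 (SE 0.50), which became 1.01 and 1.36 without control replicate 1 and 0.42 and 0.44 without control replicate 2.

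Across the set, 9 of 9 probes were higher in the knockouts and 7 of 9 showed no overlap with the knockouts above the controls. On the whole array 51.2% of probes were higher and 17.3% showed no such overlap. Of the 9 member probes 7 entered the limma model. No call is given for them, because the set was proposed from this comparison. Over the whole array 3.97% of 35351 tested probes were called at a 5% false discovery rate in limma, and 1.55% were called higher.

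Among the other gasdermin genes only Gsdme was well above background on all arrays. It differed by 0.33 (SE 0.34, limma adjusted p 0.562). Gsdma3 and Pjvk were not well above background on any array, and Gsdma2 reached that level at 1 of its probes on 1 knockout array. Among the 4 genes of this list 1 could be tested and 0 were called, and 0 had an unadjusted p under 0.05. A pair of further pseudogenes inside the C cluster, looked up after the values were seen, differed from each other. Gsdmcl2 read -7.08, -7.08 and -5.23 in the controls, where 1 of 3 arrays was well above background, and -4.78, -4.37 and -3.89 in the knockouts, a modelled difference of 2.11 (SE 0.53, adjusted p 0.0714). With the 2 dim control arrays set at their background limit the difference was 1.26. Gsdmcl1, well above background on 2 of 3 controls and on all knockouts, differed by 0.40 (SE 0.31, adjusted p 0.445).

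Genes next to the gasdermins were compared to see how far along the chromosome the pattern reached, with RefSeq assembly GRCm38.p6 used for gene order. On the side of Gsdmc, Myc, which encodes a growth-promoting transcription factor, differed by -0.21 (SE 0.44, adjusted p 0.790) and Lratd2 by 1.20 (SE 0.31, adjusted p 0.0723). On the side of Gsdmcl-ps, Cyrib, a regulator of the actin cytoskeleton, differed by -0.41 (SE 0.15, adjusted p 0.150) and Asap1 by 0.12 (SE 0.17, adjusted p 0.674). Around Gsdmd, Naprt, an enzyme of NAD synthesis, differed by 1.11 (SE 0.29, adjusted p 0.0755), Zc3h3 by 0.66 (SE 0.22, adjusted p 0.117), Eef1d by 0.15 (SE 0.17, adjusted p 0.625) and Mafa by 0.11 (SE 0.14, adjusted p 0.675).

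Around Gsdma, Ormdl3, Psmd3, Med24 and Zpbp2 did not pass (limma adjusted p 0.235, 0.514, 0.470 and 0.443). The neighbour that did was Csf3, which encodes the granulocyte growth factor G-CSF. It read -0.19, -1.83 and -1.50 in the controls and -7.70, -6.31 and -7.32 in the knockouts, where it was not well above background on any array. The control replicate 1 spot was marked as an outlier and left out of the model. From the 2 unmarked controls, Csf3 was at least 14.3-fold lower in the knockouts, a bound that uses, for each knockout array, the dimmest probe still called well above background (adjusted p 0.0169; 0.0535 without knockout replicate 3).

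**Figure D2:**
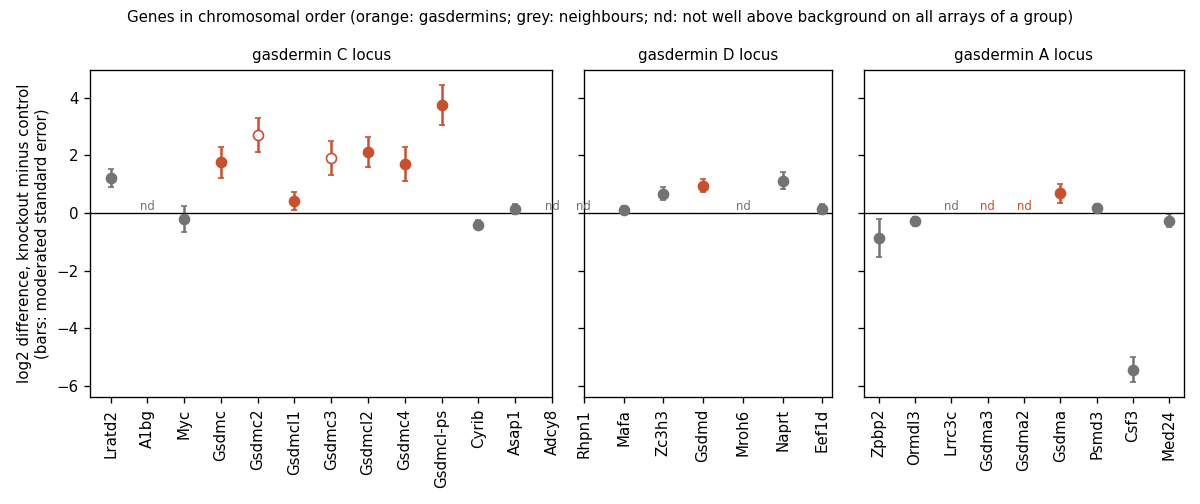
Log2 difference, knockout minus control, with the moderated standard error of limma (vertical axis), for the genes of the gasdermin C, D and A loci and up to 3 protein-coding neighbours on each side, in chromosomal order without distances; open symbols rest on outlier-marked spots, and the Csf3 value lies at background in the knockouts. The gasdermin C genes range from 0.40 for Gsdmcl1 to 3.75 for Gsdmcl-ps, and Gsdmcl2 includes control arrays at background. Among the neighbours Lratd2 lies at 1.20, Asap1 at 0.12, Myc at -0.21 and Cyrib at -0.41.

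Marker genes of the colon's cell types were read beside the gasdermins, because fewer cells of a type and less RNA per cell cannot be told apart in bulk tissue. Epithelial markers, like the gasdermin C probes, were higher in the knockouts, but their highest control was another replicate. The mean of the 5 cluster probes was -0.06, -1.50 and 0.96 in control replicates 1, 2 and 3 and 2.46, 1.78 and 2.24 in the knockouts. The mean of 11 differentiated colonocyte markers, such as Slc26a3 and Car1, was 1.90, 0.05 and 1.23 in the controls and 3.00, 2.37 and 2.42 in the knockouts, so control replicate 2 was the lowest array on both measures. The mean of 7 general epithelial markers, such as Epcam and Krt8, was 2.70, 0.97 and 2.35 against 3.38, 3.00 and 3.04. Control replicate 1 was the highest control in both marker means, whereas control replicate 3 was the highest in the cluster mean. The part of these markers in the gasdermin differences was not tested.

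Of the colonocyte markers 10 of 10 tested were higher in the knockouts, with a median of 1.42, and 0 were called. An unadjusted p under 0.05 was reached by 4 of them, against 28.2% of all 16451 tested genes. The median was 0.66 without control replicate 2, over the 8 genes still tested. The summed signal of that list, in units of each array's 75th percentile, was 22.2 to 61.0 in the controls and 72.1 to 98.7 in the knockouts. Of the general epithelial markers 5 of 5 tested were higher, with a median of 1.16, or 0.42 over 4 genes without control replicate 2. There were 0 calls and 1 gene with an unadjusted p under 0.05. The sum was 15.3 to 48.0 against 57.5 to 75.6. Of the goblet cell markers 6 of 6 tested were higher, with a median of 0.96 (0.41 with control replicate 2 left out, 1.44 with control replicate 1 left out), 0 calls, 0 genes with an unadjusted p under 0.05, and a sum of 15.4 to 67.6 against 59.7 to 81.1. No measured marker of these 3 lists was below background on every array.

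The size of the difference was 2.36 for the cluster mean, 1.53 for the colonocyte mean and 1.13 for the general epithelial mean. Subtracting the general epithelial mean from the cluster mean on each array left -2.76, -2.47 and -1.40 in the controls and -0.92, -1.22 and -0.80 in the knockouts, a difference of 1.23 with no overlap. Subtracting the colonocyte mean left -1.97, -1.55 and -0.28 against -0.54, -0.59 and -0.17, a difference of 0.83 with overlapping groups, control replicate 3 lying above 2 of the knockouts. The absolute level of these subtracted values depends on the probes and has no meaning of its own.

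Markers of other cells moved differently. For comparison, over all 16451 tested genes 3.81% were called and 51.2% were higher. An unadjusted limma p under 0.05 was reached by 28.2% of them. Of 8 neutrophil markers tested 7 fell and passed (S100a8, S100a9, Retnlg, Cxcr2, Mmp8, Mmp9 and Camp), and the median of the 8 was -3.30. S100a9 fell by 3.73 (SE 0.46, limma adjusted p 0.0245, called in 3 of 6 fits that left out an array). Retnlg fell by 4.47 (SE 0.39, adjusted p 0.0173, called in 3 of 4 such fits). The remaining tested marker, Csf3r, the receptor for G-CSF, read 3.04, 2.93 and 3.11 in the controls and 3.31, 3.14 and 3.14 in the knockouts, a difference of 0.17 (SE 0.14, adjusted p 0.483). Ly6g, a surface marker of mouse neutrophils, had too few unmarked spots; with marked spots kept it read 2.50, 1.69 and 2.43 in the controls and 3.08, 2.82 and 3.06 in the knockouts, higher in every knockout. The summed signal of the list, to which these bright probes contribute most in the knockouts, was 24.7 to 26.4 in the controls and 17.2 to 19.0 in the knockouts, and Ngp was not above background on any array. Macrophage markers had a median of -0.76, with 7 of 8 lower and 0 calls (5 with an unadjusted p under 0.05), and a sum of 19.0 to 27.4 against 12.7 to 17.2. Fibroblast markers had a median of -0.52, with 8 of 8 lower. The median was -0.34 without knockout replicate 1. Over 6 genes it was -0.81 without knockout replicate 2 and -0.79 without knockout replicate 3. There was 1 call (Pdgfrb, limma adjusted p 0.0395), lost in 6 of 6 fits that left out an array. The sum was 43.9 to 50.6 against 27.2 to 37.2. Smooth muscle markers had a median of 0.36, with 6 of 6 higher, 0 calls (2 with an unadjusted p under 0.05) and a sum of 45.1 to 56.3 against 62.4 to 72.6. For squamous epithelium, the tissue in which Gsdma is best known, 7 of 8 tested markers were higher with a median of 0.43. The median was 0.29 without control replicate 1 and 0.65 over 7 genes without knockout replicate 2. There were 0 calls, and 2 markers had an unadjusted p under 0.05. The sum of the list was 9.14 to 11.4 against 11.3 to 12.6. Most of that sum came from the bright Trp63 probe, which differed by 0.14 (SE 0.16, limma adjusted p 0.628). Sprr1b and Dsg3 were not above background on any array.

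**Figure D3:**
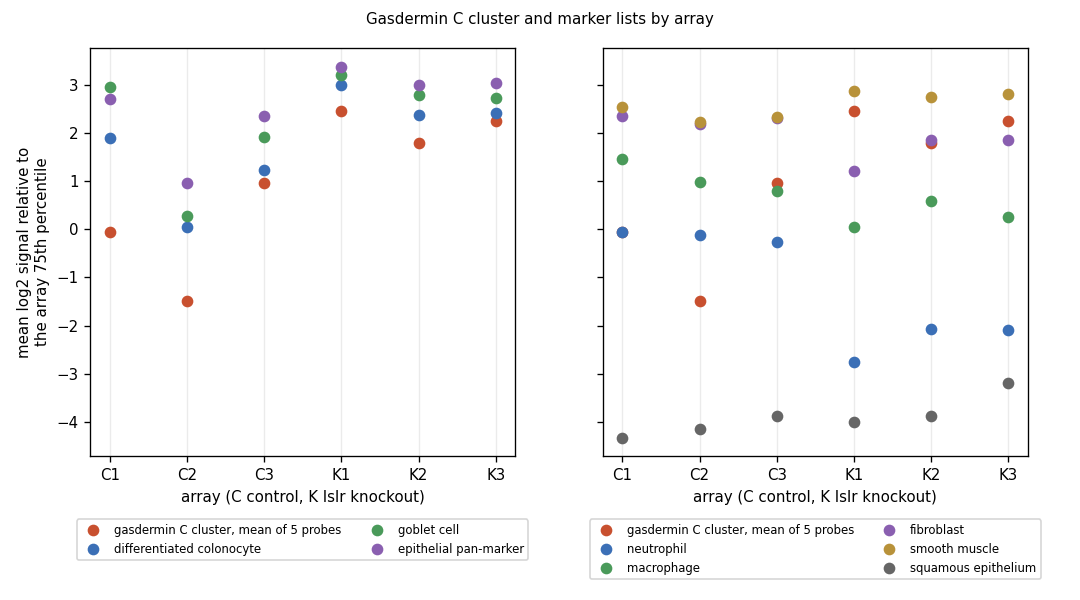
Mean log2 signal, centred on the 75th percentile of each array (vertical axis), of the 5 gasdermin C cluster probes and of the marker lists on each array (C1 to C3 controls, K1 to K3 Islr knockouts). Control replicate 2 is the lowest array for the cluster (-1.50), the colonocyte markers (0.05) and the general epithelial markers (0.97). The highest control is replicate 3 for the cluster and replicate 1 for these epithelial lists. The mean of the neutrophil markers is lower in every knockout than in every control.

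Proteases and sensors that set gasdermins free were examined as a fixed list of 22 genes. Of 16 tested, 12 were higher and 4 lower, with a median of 0.60 against 0.01 over 16451 tested genes, and 1 rose past the threshold, where 3.81% of all genes were called, and 9 had an unadjusted p under 0.05, as had 28.2% of all genes. Dropping control replicate 3 gave a median of 1.00, and dropping knockout replicate 1 gave 0.39. It was 0.18 over 18 genes without the filter on dim probes and 1.00 over 20 genes with marked spots kept. The gene that rose was Nlrp1b, an inflammasome sensor, by 2.11 (SE 0.41, adjusted p 0.0468); its call was lost in 6 of 6 fits that left out an array (adjusted p 0.0504 to 0.128). Another Nlrp1b probe gave 2.18 (adjusted p 0.0462), whereas the other tested probe gave 0.02 (adjusted p 0.964).

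The proteases themselves differed in pattern. Casp8, which can cut gasdermin C, was 1.16 higher (SE 0.24, adjusted p 0.0712). Casp4, which senses bacterial lipopolysaccharide and cuts Gsdmd, differed by 0.13 (SE 0.18, adjusted p 0.676). Casp1 and Naip6 had too few unmarked spots for the model; with marked spots kept, Casp1 read 2.20, 1.26 and 1.67 in the controls and 2.89, 2.58 and 2.46 in the knockouts, with no overlap, and differed by 0.93. Nlrp6, an epithelial sensor, was 3.37 higher (SE 0.87) and Naip1 2.62 higher (SE 0.81), and neither passed (adjusted p 0.0738 and 0.129). Elane and Ctsg, neutrophil proteases that can cut Gsdmd, were not well above background on any array.

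Among 15 genes for the cargo of the pore, membrane rupture and repair, 14 were tested, 8 higher and 6 lower, with a median of 0.38. There was 1 call, where 3.81% of all genes were called. An unadjusted limma p under 0.05 was reached by 8 of the 14, against 28.2% of all genes. Dropping knockout replicate 2 or 3 left a median of 0.03 or 0.00, over 10 tested genes. Chmp4c, a subunit of the ESCRT-III machinery that seals membranes, rose by 2.10 (SE 0.30, limma adjusted p 0.0436). Replicate 1 was marked in both groups, so the estimate rests on 2 unmarked spots in each. Only 2 fits that left out an array could include Chmp4c, and both dropped an array whose spot was already missing. The difference therefore stayed at 2.10, and the call was lost without knockout replicate 1 (adjusted p 0.0662). With marked spots kept the difference was 1.78 (limma adjusted p 0.0518). Interleukins that leave cells through the pores or on lysis had differences of opposite sign, none past the threshold. Il18, made by epithelium, averaged 0.38 ± 0.74 in the controls and 2.32 ± 0.45 in the knockouts (SD, n = 3 each) with no overlap, a difference of 1.94 (SE 0.41, adjusted p 0.0529). Il1b read 2.15, 2.11 and 2.25 in the controls and -1.81, 0.36 and 1.63 in the knockouts, a difference of -2.12 in the model (SE 0.96, adjusted p 0.226). Il1a, well above background on 2 of 3 knockout arrays, had a modelled difference of -3.09 (SE 0.83, adjusted p 0.0799), which is -2.31 with the dim array set at its background limit. Il33 differed by -2.07 (SE 0.66, adjusted p 0.109).

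Type 2 signalling, the known inducer of gasdermin C in intestinal epithelium, was represented by 18 genes. Of 12 tested, 6 were higher and 6 lower, and 1 was called, where 3.81% of all genes were called. An unadjusted limma p under 0.05 was reached by 7 of the 12, against 28.2% of all genes. The median was 0.09. It changed sign to -0.19, -0.01 and -0.08 when control replicate 1, control replicate 2 or knockout replicate 3 was dropped, and was 0.03 when control replicate 3 was dropped. The cytokine genes Il5, Il9 and Il13 were not well above background on any array, and Il4 reached that level on 2 of 3 arrays in each group. Tslp, an epithelial and stromal cytokine that starts type 2 responses, fell from -2.68 ± 0.58 to -4.68 ± 0.47 (SD, n = 3 each) and passed (SE of the difference 0.36, limma adjusted p 0.0419), but its call was lost in 5 of 6 fits that left out an array (adjusted p up to 0.112). The receptor chain Il4ra differed by -0.68 (SE 0.23, adjusted p 0.121) and the transcription factor Stat6 by -0.17 (SE 0.17, adjusted p 0.563). Retnlb, a goblet cell product induced by type 2 cytokines, read 3.15, -0.30 and 1.95 in the controls and 3.31, 2.98 and 2.82 in the knockouts, which overlapped. Replicate 1 was marked in both groups. The model, which left those spots out, gave a difference of 2.08 (SE 0.76, limma adjusted p 0.175). With marked spots kept it was 1.44 (limma adjusted p 0.292).

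Of 14 transcriptional regulators 11 were tested, 8 higher and 3 lower, with 0 calls and a median of 0.85 (0.44 and 0.53 on setting aside control replicates 2 and 3 in turn); 5 had an unadjusted p under 0.05, beside 28.2% of all genes. Hnf4a, a factor that maintains intestinal epithelial identity, was 2.36 higher (SE 0.70, adjusted p 0.120), and its other probe was 3.12 higher (adjusted p 0.109). Hnf4g was not well above background on any control array and was at least 2.49-fold higher in the knockouts (adjusted p 0.104). Irf2, a factor that drives Gsdmd transcription, had too few unmarked spots; with marked spots kept it read 0.55, 0.69 and 0.46 in the controls and 1.41, 0.64 and 0.65 in the knockouts, which overlapped.

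**Figure D4:**
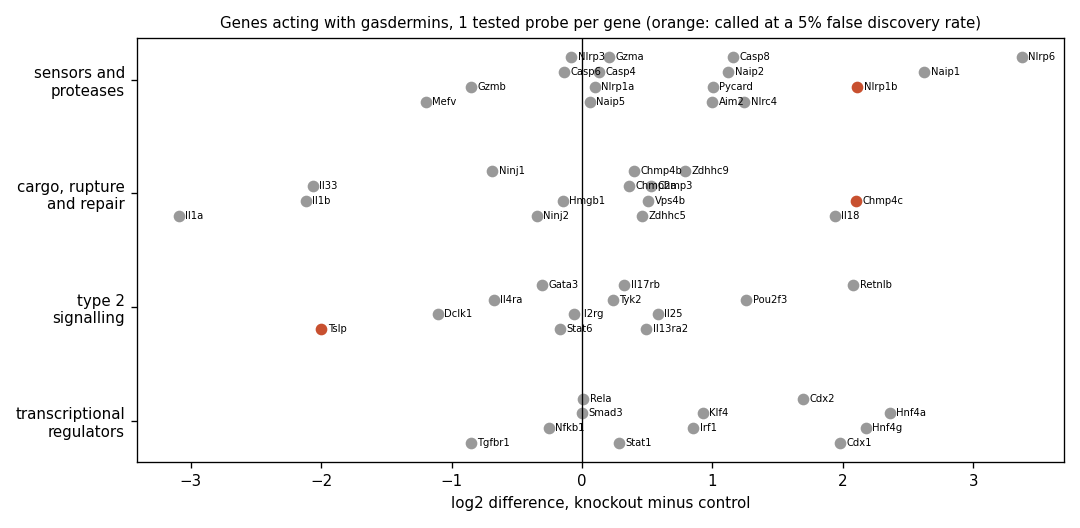
Log2 difference, knockout minus control (horizontal axis), of the tested genes of the 4 lists, 1 probe per gene; vertical offsets within a list only separate the points, and orange marks genes called at a 5% false discovery rate. Nlrp1b and Chmp4c lie on the higher side and Tslp on the lower side, and Il18 lies opposite Il1a, Il1b and Il33.

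Genes whose pattern over the 6 arrays was most like that of the gasdermins were ranked by Pearson correlation of the log2 signal, with marked spots kept, among 16773 genes well above background on all arrays. This ranking is a description: 6 arrays in 2 groups leave room for many close matches, and 813 genes (4.85%) reached a correlation of at least 0.9 with the cluster mean. The 10 closest to the gasdermin C cluster were Junb, Acnat2, Macc1, S100a16, Zfp616, Klk1b16, Gm20300, Tstd1, 4930595D18Rik and Itga6, with correlations of 0.989 to 0.996. After the group means were subtracted their correlations were 0.966 to 0.989. Of the 10, 7 had the cluster's exact order of arrays, an order found in 277 genes of the ranking. All 10 were picked for their closeness.

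These genes differed in the size of their change. Macc1, which regulates the hepatocyte growth factor receptor gene, read -2.82, -4.72 and -2.10 in the controls and -0.19, -1.26 and -0.54 in the knockouts, a difference of 2.55. Junb, a subunit of the AP-1 transcription factor, differed by 0.22. Itga6, an integrin chain that binds laminin in the basement membrane, differed by 0.79.

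Ap1s1, Tnfsf15, Prkci and Cyp2d10 were among the 5 genes closest to Gsdmd, taken at its brighter probe A_51_P172231 (0.997 to 0.999). A correlation of at least 0.9 with it was reached by 1799 genes (10.7%). Cyp2d10, a cytochrome P450 gene, differed by 2.46. Gsdmd itself stood at place 400 in the ranking against the gasdermin C cluster, and Gsdma at place 3364.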

How the data were processed

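RNA was hybridised to single-colour Agilent arrays, 1 per mouse, and read with Feature Extraction 11.5.1.1 with array design 074809, per the file headers. Cy3 and a green column stand in the labels; the files hold the red channel, which was used. The authors' deposited processed signal is an intensity on a linear scale, background-subtracted and detrended within the array, without scaling between arrays, per the file headers. Here log2 signals were centred on each array's 75th percentile over non-control spots; outlier-marked spots were treated as missing. A probe entered the test if either group had it well above background on its 3 arrays and both groups had at least 2 usable values: 35351 of 56605 probes. limma 3.58.1 (R 4.3.3; lmFit, eBayes, two-sided, genotype as the only term) was used with Benjamini-Hochberg adjustment over all tested probes; SEs are moderated. The fit was tested on simulated data. Probes were named by unversioned RefSeq accession (33767 matched). The files use mm9, so no coordinates of probes are given.

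The number of arrays, 3 a group, limits the precision. Between 69.4% and 75.4% of spots per array were well above background, and no spot was saturated. Outlier marks were uneven between arrays. They covered 13.6%, 3.30% and 3.94% of spots in control replicates 1, 2 and 3. In knockout replicates 1, 2 and 3 they covered 16.0%, 9.05% and 3.26%. Members and lists were chosen with earlier results of these data known. Named genes were all members, Islr, called genes of the pathway lists (where none was called, the 2 with the largest difference), genes needed to follow the text, tested neighbours, and the 10 and 5 genes most like the C cluster and Gsdmd. Some genes are not reported here. Nlrp6, Naip1, Il1a, Retnlb and the genes of the marker lists were named after their values were seen. For a gene the brightest tested probe stood. Leaving out an array also changes which genes can be tested, so a list median can then rest on another set of genes. Alternatives were normexp (offset 50) with quantile normalization, quantile normalization alone, median centring, no filter, outlier spots kept, array weights, the series value table, another probe rule, rank correlation and leaving out each array; for Gsdmc2 and Gsdmc3 the last was added after seeing the data.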

Additional observations from a re-analysis of the deposited data

How the results depend on the processing

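The 9 gasdermin probes kept their direction in 99 of 99 refits, of which 85 gave another value than the reported one, each within 1 SD between arrays of the reported value. For the refits that left out an array nothing follows from this. With 3 arrays a group, dropping an array cannot move the difference by that SD. Nor can it reverse the 7 of 9 probes whose groups did not overlap. Gsdmc4 went from 1.70 to 0.99 without control replicate 2 and still lay within that SD. Over the settings with all 6 arrays Gsdmcl-ps gave 3.35 to 4.14, Gsdmc 1.65 to 2.21, Gsdmc4 1.61 to 2.30, the Gsdmd probes 0.80 to 1.13 and 1.60 to 2.04, and the Gsdma probes 0.47 to 1.14 and 0.55 to 0.94. With an array left out and outlier spots kept, Gsdmc2 gave 2.05 to 3.26 and Gsdmc3 gave 1.26 to 2.52. The number of called probes was 2773 with normexp and quantile normalization, 2185 with quantile normalization, 2249 with median centring, 484 without the filter (more probes tested), 8119 with array weights (4116 higher, against 548 higher of 1403), and 40 (without knockout replicate 3) to 2114 (without control replicate 1) with an array left out. Called sensor and protease genes numbered 2 with normexp, quantile normalization or the value table, 0 without the filter, 5 with outlier spots kept, 8 with array weights, 3 with the probe of lowest p, and 0 to 2 with an array left out. Called cargo and repair genes numbered 4 with normexp, 2 with quantile normalization or the probe of lowest p, 0 without the filter, 8 with array weights, and 0 to 2 with an array left out. Called type 2 genes numbered 2 with normexp, 0 without the filter, 3 with array weights, and 0 to 1 with an array left out. Called regulators numbered 2 with normexp, 1 with quantile normalization or median centring, and 5 with array weights. Some medians moved over 1.5 times with all 6 arrays. With array weights they were 1.49 for goblet, 0.27 for squamous and -0.31 for fibroblast markers. Cargo genes gave 0.25 with quantile normalization. Sensors and proteases gave 0.18 without the filter and 1.00 with outlier spots kept. Gsdme alone was tested among the other gasdermins and gave 0.71 with array weights, against 0.33. The type 2 median was 0.01 with normexp, 0.04 with quantile normalization, 0.15 without the filter, 0.03 with outlier spots kept and 0.02 with array weights. The causes were not tested. By rank correlation 7 of the 10 genes most like the cluster shared its exact order of arrays, as did 277 genes of the ranking. No paired analysis was possible because the labels give no replicate numbers shared between the groups.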
